A study of Saccharomyces cerevisiae with 12 samples.

Results

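The comparison described here sets cells of the haploid laboratory yeast strain CENPK 113-7D on day 10 against cells of the same strain in log phase, the stretch of exponential growth on glucose. Every culture was a batch culture in SD medium, a synthetic medium with 2% glucose, and no group carried a mutation or drug in the labels. The members are the 6 arrays labelled for these times, 3 for day 10 and 3 for log phase, of 12 arrays in the series. The other 6 arrays, 3 each for days 2 and 6, entered only the estimate of spread and the direct comparisons with day 10. The sample labels date the arrays from stationary phase, whereas the series text dates them from the culture's beginning, so the starting point of day 10 is not settled. On each array 5449 S. cerevisiae genes were measured as log2 probe set values. Nothing in the labels ties the 3 arrays of a time to separate cultures, and the p-values then reflect only the spread among arrays, some or all of which may be technical.

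When a batch culture of yeast uses up glucose it first switches from fermentation to respiration of the ethanol it has made, and later stops dividing. Protein kinase A and the TOR complex, which promote growth while nutrients last, lose activity, and the kinase Snf1 relieves the repression that glucose places on genes for other carbon sources. Cells in stationary phase are known for thick walls, stores of trehalose and glycogen, high levels of protective proteins and a low rate of protein synthesis. How long such non-dividing cells stay alive is called chronological lifespan, and it is the subject of this series.

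On day 10, 2151 of 5449 genes (39.5%) were called higher and 2170 (39.8%) lower than in log phase, at an adjusted p under 0.05 from limma with Benjamini-Hochberg adjustment over all genes. Of these, 590 genes (10.8%) were higher by at least 2-fold and 461 (8.46%) were lower by at least 2-fold. Together 79.3% of genes were called. The 3 day 10 arrays and the 3 log phase arrays did not overlap for 4560 genes (83.7%). With such a background a called gene is the usual case, so sizes of difference say more than counts. All differences are day 10 minus log phase on the log2 scale, with the standard error of the fit and 3 arrays in each group, and every adjusted p is from the same limma fit.

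Differences are relative to the other genes of the same array. Centring the arrays on 27 bacterial and phage hybridisation control probe sets moved the median of all genes by -0.97, and leaving out the control bioB, which uses 18 of them, moved it by -0.64. The split of calls was then 381 higher and 4424 lower with all controls, and 590 higher and 3674 lower without bioB. A gene less than 0.97 above log phase is therefore below it on the first of these scales. Medians in square brackets give a list's value on both, all controls first, wherever the median's sign turns on either. Counts of genes can shift where the median's sign does not, and they are given, with all controls, for the lists whose median stayed above 0. These controls do not measure RNA per cell, and in RNA from whole cultures fewer living cells and less RNA per cell cannot be told apart. The control bioB lay -0.89 ± 0.01 from bioC on day 10 arrays and -2.17 ± 0.08 in log phase arrays (SD, n = 3 each), so a difference in hybridisation cannot be told apart from growth phase.

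Within the groups 1 array each lay slightly nearer to a neighbouring time than the others in its group. Replicate 2 of day 10 differed from the day 6 mean by 0.44 (root mean square over all genes), against 0.51 for each of replicates 1 and 3. It was the highest of the 3 day 10 arrays for 97.1% of proteasome genes and the lowest for 90.2% of ribosome biogenesis genes, against 35.5% and 42.4% of all genes. In log phase, replicate 3 differed from the day 2 mean by 0.93, against 0.95 and 0.96 for replicates 1 and 2. It was the highest log phase array for 83.0% of ribosome biogenesis genes and 100% of trehalose genes, against 41.2% of all genes. On day 2, 9 of 9 trehalose genes were called higher than in log phase, whereas 111 of 112 ribosome biogenesis genes were called lower. In ribosome biogenesis, then, this array did not lean towards day 2. Without replicate 2 of day 10 the counts were 2101 higher and 2093 lower, and without replicate 3 of log phase 2107 and 2080. Over 63 gene lists, leaving out either array moved no count of called genes by more than 8, and 1 median, that of purine synthesis, changed sign without replicate 3 of log phase.

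The strongest differences were large on every array. THI4, an enzyme that makes the thiazole part of thiamine, read 11.52, 11.66 and 11.61 on day 10, against 6.45, 6.46 and 6.29 in log phase. The groups lay 5.20 ± 0.08 apart (adjusted p = 1.07e-13). NCA3, a wall protein of the SUN family, read 11.39, 11.09 and 11.34 on day 10, against 6.07, 5.98 and 6.21 in log phase, and PIR3, a wall protein with internal repeats, 11.26, 11.39 and 11.49 on day 10, against 6.32, 6.21 and 6.52 in log phase. The wall genes differed by 5.19 ± 0.11 and 5.03 ± 0.11, and every day 10 array lay far above every log phase array. PCK1, the enzyme that commits carbon to gluconeogenesis, read 11.29, 11.49 and 11.30 on day 10, against 6.68, 6.69 and 7.54 in log phase, a difference of 4.39 ± 0.21. The lactate and pyruvate permease gene JEN1 differed by 4.16 ± 0.08 and the ribosome-associated TMA10 by 4.03 ± 0.12. RTS3, a putative part of a protein phosphatase, had the smallest difference of the 15 highest genes, 3.74 ± 0.12.

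ANS1, a putative surface protein, had the least even day 10 arrays of these genes, at 10.21, 8.66 and 9.84 on day 10, against 5.54, 5.49 and 5.50 in log phase. All log phase arrays lay below background, set at the 95th percentile of 1746 probe sets for genes of another yeast species printed on the same array. Its level was at least 13.2-fold higher on day 10 (adjusted p = 1.08e-08), and replicate 2, the lowest of the day 10 arrays, was still far above log phase. SUL1, a sulfate permease, read 9.70, 10.03 and 9.48 on day 10, against 5.61, 5.53 and 5.88 in log phase, with 2 of the 3 log phase arrays below background.

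Among the 15 lowest genes, ZPS1, a surface protein under control of the zinc regulator Zap1, read 7.27, 7.84 and 7.31 on day 10, against 11.44, 11.59 and 11.16 in log phase, a difference of -3.93 ± 0.24. UTR2, which links chitin to glucan in the wall, read 6.83, 6.93 and 6.86 on day 10, against 9.76, 9.60 and 9.85 in log phase and the groups were -2.86 ± 0.07 apart. PSD1, the mitochondrial phosphatidylserine decarboxylase, differed by -2.38 ± 0.11, and the fatty acid elongase ELO2 by -2.24 ± 0.09. DUT1, which removes dUTP before it enters DNA, read 8.37, 7.98 and 8.30 on day 10, against 10.37, 10.36 and 10.27 in log phase. ADH4, an alcohol dehydrogenase that is also a Zap1 target, read 7.38, 7.56 and 7.31 on day 10, against 10.18, 10.35 and 9.33 in log phase, and its lowest log phase array still lay above day 10. HRI1 (-2.20) and AIM20 (-2.67) have no settled function, and the transposon reading frame YBL100W-B (-2.13) shares its probe set with near-identical copies, so its value cannot be given to 1 element. The 30 genes were chosen among called genes whose day 10 and log phase arrays do not overlap, so the lack of overlap is part of the choice.

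**Figure D1:**
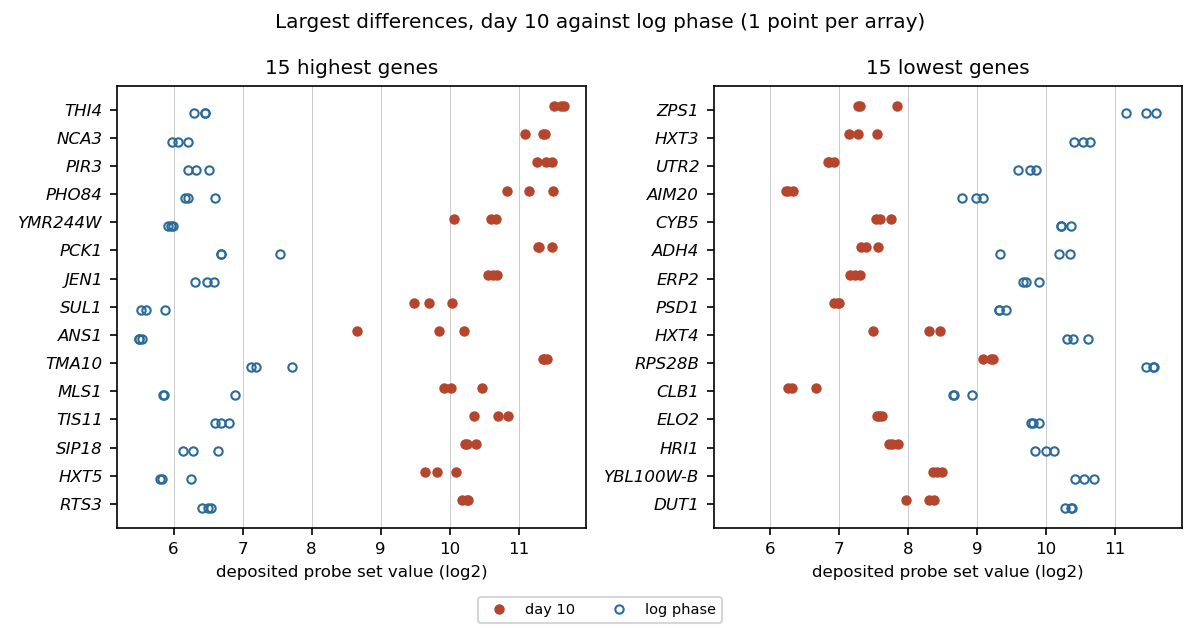
Probe set values (x axis, log2) of the 15 genes with the largest positive (left) and negative (right) difference, 1 filled point per day 10 array and 1 open point per log phase array. The 30 genes were chosen among those whose groups do not overlap. ANS1 and HXT4 have the widest spread on day 10.

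**Figure D2:**
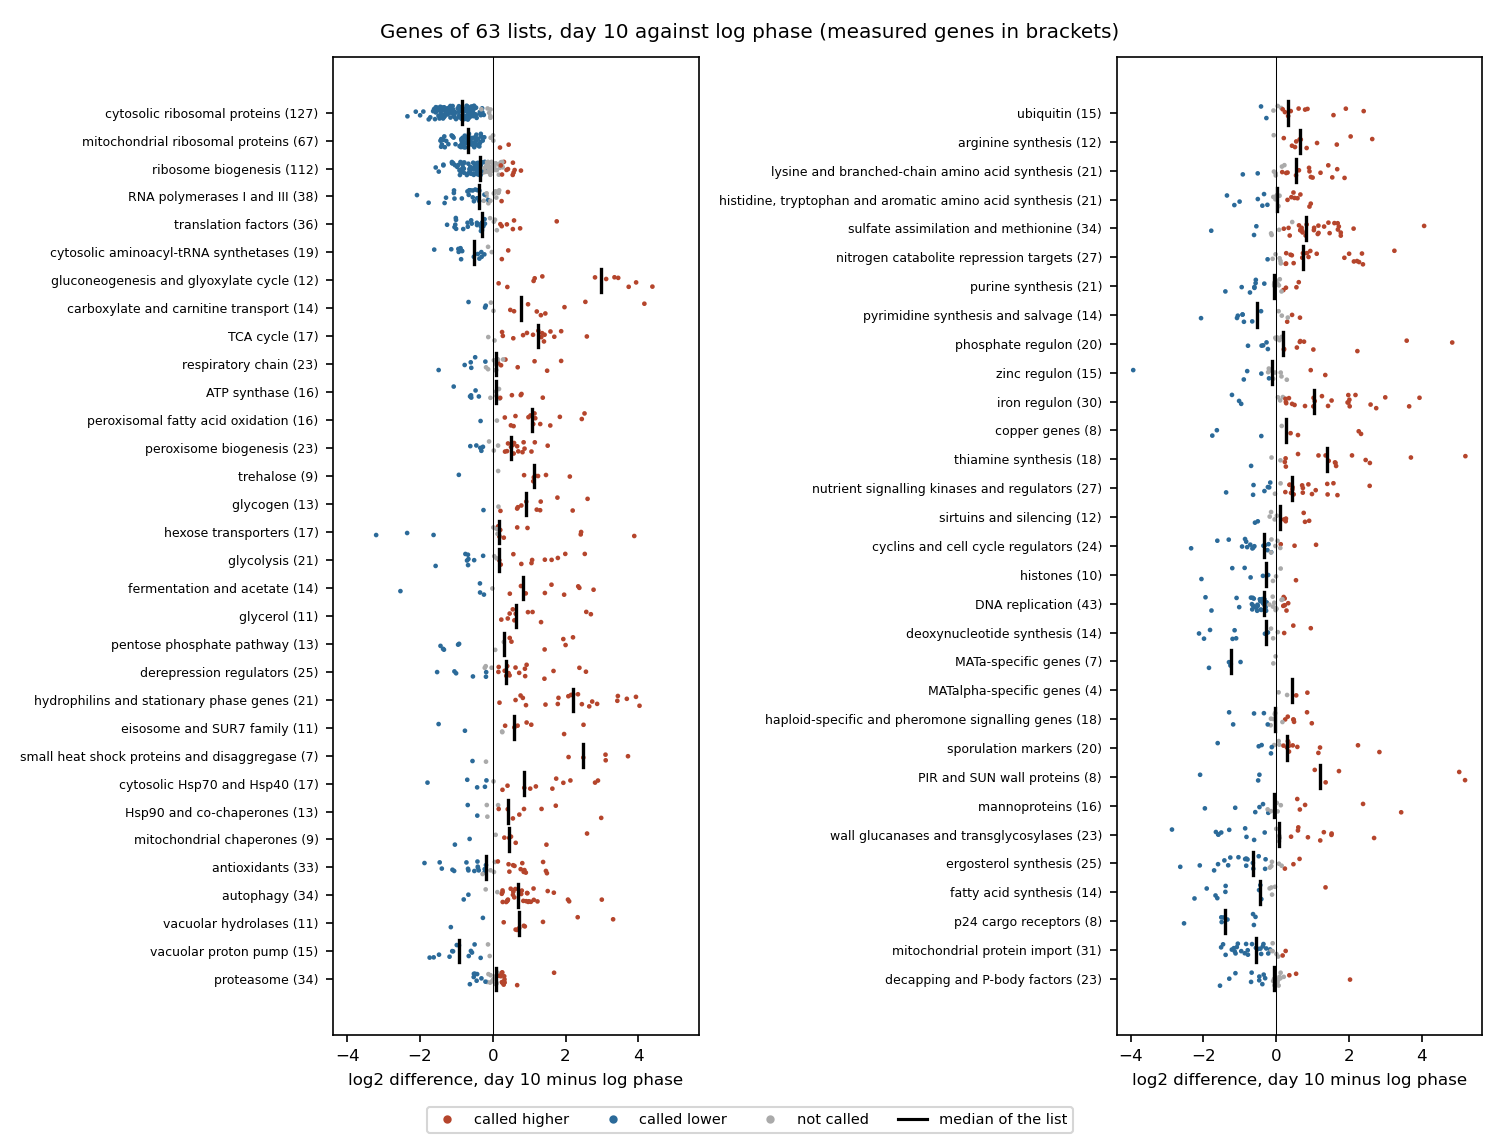
Difference of each measured gene (x axis, day 10 minus log phase, log2) in 63 gene lists, coloured by call, with a bar at the list's median. Gluconeogenesis, hydrophilins and small heat shock proteins lie farthest right, and p24 cargo receptors and MATa-specific genes farthest left.

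Genes that let cells live on carbon sources other than glucose stood far above log phase. All 12 genes in the list for gluconeogenesis and the glyoxylate cycle rose, with a median of 2.96 against -0.01 over all genes. The glyoxylate cycle lets cells build sugar from the carbon of ethanol and acetate. Malate synthase, MLS1, read 9.92, 10.47 and 10.01 on day 10, against 5.85, 5.86 and 6.89 in log phase, and isocitrate lyase, ICL1, read 10.23, 10.44 and 10.24 on day 10, against 6.29, 6.30 and 7.12 in log phase. In both genes log phase replicate 3 was the highest of its group and day 10 still lay far above it. Of the 12 genes, 8 were called higher with all controls and 2 lower. Differences in the list ran from 0.16 to 4.39. IDP2, the cytosolic isocitrate dehydrogenase that makes NADPH, differed by 3.45 ± 0.12, while its mitochondrial counterpart IDP1 stood at -0.12 ± 0.06 and was not called.

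In carboxylate and carnitine transport 9 of 14 genes rose and 3 fell, with a median of 0.78 [-0.19 and 0.14]. The count that fell was 1 without day 10 replicate 2 or without log phase replicate 1 or 2. ATO2, a putative ammonium transporter, rose by 2.54 ± 0.07, and MPC3, the form of the mitochondrial pyruvate carrier subunit used in respiration, by 1.97 ± 0.11. Its partner subunit gene MPC1 stood at -0.21 ± 0.09, and DIC1, the mitochondrial dicarboxylate carrier, at -0.66 ± 0.07.

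In the TCA cycle 15 of 17 genes rose, none fell, and the median was 1.25. With all controls 8 were called higher and 5 lower. Without day 6 replicate 3, 1 gene was called lower. Citrate synthase CIT1 differed by 2.59 ± 0.07, malate dehydrogenase MDH1 by 1.88 ± 0.06 and isocitrate dehydrogenase subunit IDH1 by 1.69 ± 0.09. The respiratory chain, which takes electrons from this cycle, did not move as a block: 7 of 23 genes rose, 6 fell and the median was 0.10 [-0.87 and -0.55]. The 3 genes that rose most encode NADH dehydrogenases of the inner membrane, NDE2 (1.88 ± 0.12), NDE1 (1.49 ± 0.10) and NDI1 (1.15 ± 0.08), which are single polypeptides in yeast. Those that fell most encode cytochrome c, CYC1 (-1.49 ± 0.06), and cytochrome oxidase subunits, COX6 (-0.77 ± 0.09) and COX5B (-0.60 ± 0.13). CYC1 read 9.14, 9.25 and 9.18 on day 10, against 10.64, 10.67 and 10.71 in log phase, so the groups were well apart. ATP synthase was split in the same manner, with 5 of 16 genes higher, 6 lower and a median of 0.10 [-0.87 and -0.55]. STF1, which stabilises the inhibitor of the enzyme, differed by 1.37 ± 0.09, and subunit gene ATP20 by -1.07 ± 0.09.

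Peroxisomes house the oxidation of fatty acids in yeast. Of 16 genes for it 14 rose and 1 fell, with a median of 1.08. With all controls 4 were called higher and 6 lower. The thiolase gene POT1 differed by 2.52 ± 0.09, and POX1, the oxidase of the first step, was below background on all log phase arrays and at least 4.89-fold higher on day 10. Peroxisome biogenesis had 15 of 23 genes higher and 5 lower, with a median of 0.50 [-0.47 and -0.14]. Its highest members were PEX21 (1.51 ± 0.09) and PEX18 (1.16 ± 0.09), a redundant pair that imports the thiolase, and its lowest were PEX17 (-0.62 ± 0.07) and PEX13 (-0.45 ± 0.07), both of the docking complex.

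In glycolysis the isoenzymes of a pair often differed in direction. As a list glycolysis was mixed, with 11 of 21 genes higher, 8 lower and a median of 0.18 [-0.79 and -0.46]. Hexokinase HXK1 read 9.78, 9.85 and 10.12 on day 10, against 7.14, 7.08 and 7.93 in log phase, a difference of 2.53 ± 0.19. Its paralogue HXK2, the main hexokinase of growth on glucose, read 9.52, 9.31 and 9.82 on day 10, against 10.39, 10.23 and 10.29 in log phase, a difference of -0.75 ± 0.11. Enolase ENO1 differed by 1.08 ± 0.07 and ENO2 by -1.57 ± 0.11, and the glyceraldehyde-3-phosphate dehydrogenase genes TDH1 by 1.62 ± 0.08 and TDH3 by -0.26 ± 0.08. PYK2, a pyruvate kinase that needs no fructose bisphosphate, differed by 1.06 ± 0.06, whereas the main pyruvate kinase CDC19 was not called (0.04 ± 0.07). Glucokinase GLK1 rose by 1.99 ± 0.14 and FBP26, which degrades the glycolytic activator fructose 2,6-bisphosphate, by 1.79 ± 0.07.

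The pentose phosphate pathway, with 6 of 13 genes higher and 5 lower (median 0.30 [-0.66 and -0.34]), held 4 pairs of isoenzymes, not all with opposite calls. GND2 differed by 1.43 ± 0.10 and GND1 by -0.95 ± 0.06, and the transaldolases NQM1 by 2.20 ± 0.13 and TAL1 by -0.92 ± 0.10. For transketolase only TKL2 was called (2.00 ± 0.09), with TKL1 at 0.07 ± 0.06, and for the lactonases only SOL3 (-1.43 ± 0.07), with SOL4 at 0.30 ± 0.14. ZWF1, the glucose-6-phosphate dehydrogenase that feeds the whole pathway, rose by 1.94 ± 0.10. RPE1 and RKI1, enzymes with no such partner in the list, stood at -1.36 ± 0.06 and -1.34 ± 0.18. Acetyl-CoA synthetase ACS1, the form of respiring cells, differed by 1.12 ± 0.10 and ACS2 by -0.35 ± 0.08. ADH2, which oxidises ethanol, read 8.85, 9.17 and 8.63 on day 10, against 5.97, 5.96 and 6.41 in log phase, a difference of 2.77 ± 0.15, and ADH1, which makes it, differed by 0.47 ± 0.08. Aldehyde dehydrogenases ALD6 (2.38 ± 0.08) and ALD5 (2.35 ± 0.07) rose next to ADH2 in the fermentation and acetate list, where 9 of 14 genes rose and 4 fell (median 0.84 [-0.13 and 0.20]).

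**Figure D3:**
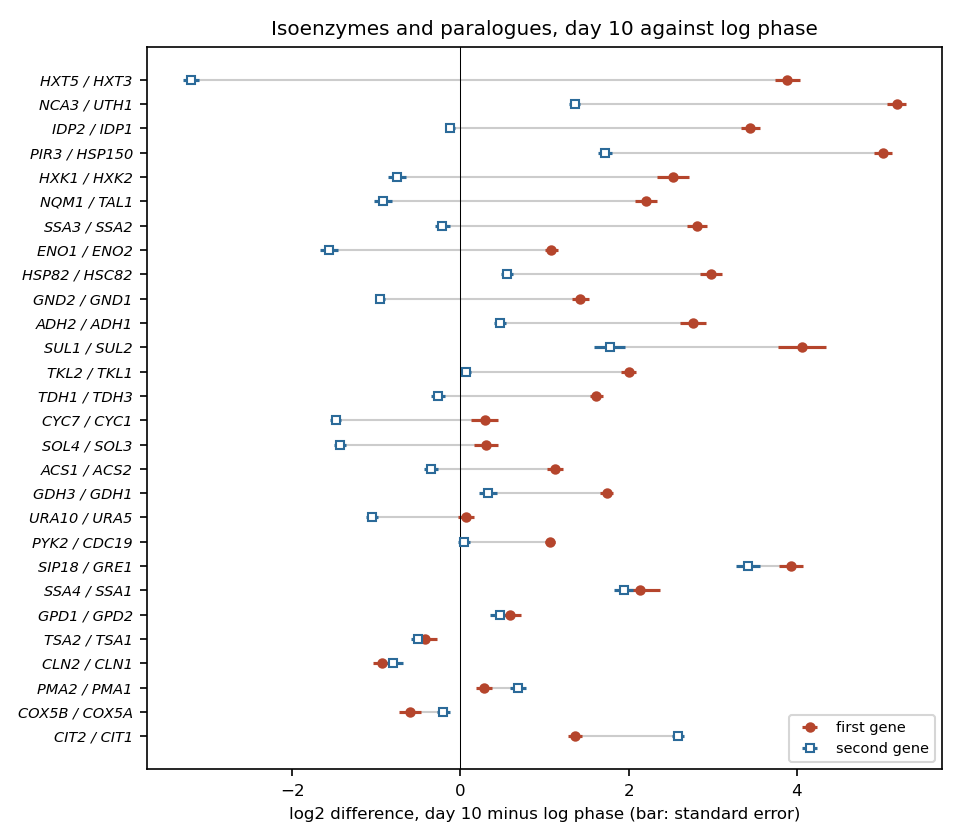
Difference between day 10 and log phase (x axis, log2, with the standard error) for both genes of 28 pairs of isoenzymes or paralogues, filled for the first gene named and open for the second. The 8 pairs HXT5 and HXT3, HXK1 and HXK2, NQM1 and TAL1, SSA3 and SSA2, ENO1 and ENO2, GND2 and GND1, TDH1 and TDH3, and ACS1 and ACS2 have a called gene on each side of 0.

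Of 17 hexose transporter and sensor genes 9 rose and 3 fell (median 0.18 [-0.79 and -0.46]), and the largest differences ran both ways. HXT5, a transporter of slowly growing and non-growing cells, read 9.64, 10.09 and 9.82 on day 10, against 5.80, 5.84 and 6.25 in log phase, and HXT2, of high affinity, differed by 2.42 ± 0.20. HXT7, of high affinity as well, differed by 2.43 ± 0.14 on a probe set that near-identical copies share, so the value cannot be given to 1 gene. HXT3 and HXT1, the low-affinity transporters of glucose growth, differed by -3.20 ± 0.09 and -1.62 ± 0.10, and HXT4, of high affinity, by -2.35 ± 0.19. HXT4 read 8.31, 7.49 and 8.46 on day 10, against 10.39, 10.31 and 10.61 in log phase, and replicate 2 was the lowest of the day 10 arrays.

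All 11 genes of glycerol metabolism rose (median 0.63 [-0.34 and -0.01]). Mitochondrial glycerol-3-phosphate dehydrogenase GUT2 differed by 2.70 ± 0.11 and the phosphatase GPP2 by 2.57 ± 0.12. DAK2, a dihydroxyacetone kinase, was below background on all log phase arrays and at least 2.15-fold higher on day 10. The 2 glycerol-3-phosphate dehydrogenases that start glycerol synthesis, GPD1 and GPD2, differed by 0.59 ± 0.13 and 0.47 ± 0.11.

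The regulators of this switch were themselves mixed, with 16 of 25 higher and 6 lower (median 0.37 [-0.60 and -0.27]). The activators rose: ADR1 read 8.59, 8.74 and 8.76 on day 10, against 6.15, 6.27 and 6.52 in log phase, and HAP4, the regulated subunit of the activator of respiratory genes, differed by 1.67 ± 0.11. SIP4, an activator of gluconeogenic genes, was below background on all log phase arrays and at least 5.12-fold higher on day 10, and CAT8, which controls it, differed by 0.89 ± 0.08. Of the kinase complex itself, the catalytic subunit gene SNF1 was not called (-0.19 ± 0.09), its partner SNF4 fell by 1.53 ± 0.11, and the targeting subunits SIP2 (0.93 ± 0.06), SIP1 (0.33 ± 0.07) and GAL83 (-0.19 ± 0.08) diverged. Among repressors MIG1 (0.88 ± 0.08) differed in sign from MIG2 (-1.01 ± 0.12) and MIG3 (-0.54 ± 0.06). The glucose sensor regulators MTH1 and STD1 also differed in sign, at 1.42 ± 0.12 and -1.05 ± 0.05.

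Genes of reserve carbohydrates were mostly higher than in log phase relative to the other genes, and the carbohydrates themselves were not measured. In trehalose metabolism 7 of 9 genes rose and 1 fell (median 1.13), and the highest was NTH1, the trehalase that breaks the sugar down, at 2.12 ± 0.08. TSL1, a subunit of the synthase (1.46 ± 0.13), and PGM2, a phosphoglucomutase (1.25 ± 0.13), followed, while UGP1, which makes UDP-glucose, differed by -0.93 ± 0.10. For trehalose, with all controls, 2 were called higher and 2 lower. Of 13 glycogen genes 11 rose and 1 fell (median 0.92 [-0.05 and 0.28]), led by the branching enzyme GLC3 (2.61 ± 0.16) and by GAC1 (2.20 ± 0.10) and PIG2 (1.78 ± 0.11), which target a phosphatase to glycogen synthase. The phosphatase gene itself, GLC7, differed by -0.25 ± 0.10, and it was not called without day 10 replicate 1 or 3 or log phase replicate 2 or 3, which left 0 glycogen genes lower.

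All 21 hydrophilins and stationary phase genes rose, with a median of 2.21. With all controls 16 were called higher and 1 lower. Hydrophilins are small soluble proteins made when water is scarce. SIP18 read 10.38, 10.25 and 10.22 on day 10, against 6.27, 6.13 and 6.64 in log phase, its relative GRE1 differed by 3.42 ± 0.14, and TMA10 read 11.35, 11.37 and 11.41 on day 10, against 7.12, 7.20 and 7.72 in log phase. SNZ1, an enzyme of vitamin B6 synthesis named for stationary phase, differed by 3.68 ± 0.13. Of 7 genes in the list named for small heat shock proteins and the disaggregase 5 rose and 1 fell (median 2.49). With all controls 5 were called higher and 2 lower. Without day 10 replicate 2 or log phase replicate 3, 2 genes were called lower. The small heat shock protein gene HSP26, whose product binds unfolded proteins, read 11.76, 12.10 and 11.93 on day 10, against 7.78, 7.74 and 9.12 in log phase, a difference of 3.71 ± 0.28, with log phase replicate 3 the highest of its group. BTN2 (3.10 ± 0.16) and HSP30 (3.10 ± 0.15) rose to a like extent, and HSP31 differed by -0.56 ± 0.12. HSP30 and HSP31 encode proteins of other kinds, so the counts and the median are those of a list wider than its name.

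Cytosolic Hsp70 and Hsp40 genes rose in 11 of 17 and fell in 5 (median 0.87 [-0.10 and 0.22]). Without log phase replicate 2 the count that fell was 3. SSA3 read 9.81, 10.20 and 9.95 on day 10, against 7.14, 7.05 and 7.34 in log phase, whereas SSA2, the form of growing cells, stood at -0.21 ± 0.09 and lost its call when single arrays were left out, at -0.23 to -0.17. The nucleotide exchange factor SSE2 rose by 2.89 ± 0.12. The 3 that fell most were SNL1 (-1.79 ± 0.07), SSZ1 (-0.70 ± 0.10) and ZUO1 (-0.43 ± 0.07), the last 2 of which form the ribosome-associated complex. Hsp90 and its partners rose in 8 of 13 and fell in 2 (median 0.41 [-0.56 and -0.23]). HSP82, the inducible Hsp90, differed by 2.98 ± 0.13 and the constitutive HSC82 by 0.55 ± 0.07, with the co-chaperone STI1 at 1.73 ± 0.10. Mitochondrial chaperones rose in 6 of 9 and fell in 2 (median 0.45 [-0.52 and -0.19]). Their disaggregase HSP78 rose by 2.59 ± 0.11, and MGE1, the exchange factor of the import motor, differed by -1.04 ± 0.08.

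Antioxidant genes did not share this pattern: 13 of 33 rose and 16 fell, with a median of -0.19. Those that rose most were SRX1 (1.49 ± 0.08), which repairs oxidised peroxiredoxin, and 2 peroxidases, PRX1 (1.46 ± 0.08) of mitochondria and GPX1 (1.38 ± 0.10). Those that fell most were thioredoxin TRX1, which read 9.23, 9.28 and 9.16 on day 10, against 11.16, 11.13 and 11.002 in log phase, the peroxiredoxin AHP1 (-1.46 ± 0.11) and glutathione synthetase GSH2 (-1.40 ± 0.07). The cytosolic peroxiredoxins TSA1 and TSA2 differed by -0.50 ± 0.09 and -0.42 ± 0.14.

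Eisosomes, furrows of the plasma membrane, had 7 of 11 genes higher and 2 lower (median 0.59 [-0.37 and -0.05]). FMP45 (2.49 ± 0.17) and PUN1 (1.96 ± 0.12) rose while their relatives SUR7 (-1.49 ± 0.11) and FHN1 (-0.76 ± 0.06) fell.

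Genes of self-digestion and those of the pump that acidifies the vacuole went in opposite directions relative to the other genes. Of 34 autophagy genes 30 rose and 2 fell, with a median of 0.70 [-0.27 and 0.06]. ATG39, a receptor for the nuclear envelope, read 8.96, 9.26 and 8.89 on day 10, against 6.03, 5.98 and 6.10 in log phase, ATG1, the kinase that starts the process, 8.30, 8.47 and 8.33 on day 10, against 6.24, 6.42 and 6.14 in log phase, and ATG8, the ubiquitin-like protein of the forming membrane, 9.78, 10.07 and 9.85 on day 10, against 7.84, 7.88 and 7.79 in log phase. In none of them did the groups overlap, which held for 83.7% of all genes. ATG27 (-0.80 ± 0.07) and ATG10 (-0.67 ± 0.09) were the genes that fell. Of 11 vacuolar hydrolase genes 9 rose and 2 fell (median 0.73 [-0.24 and 0.08]), led by proteinase B, PRB1, which read 11.58, 11.55 and 11.55 on day 10, against 8.27, 8.24 and 8.25 in log phase. The mannosidase AMS1 (2.33 ± 0.06) and proteinase A, PEP4 (1.38 ± 0.08), followed, and the aminopeptidase APE3 fell most (-1.15 ± 0.11). Of 15 genes of the vacuolar proton pump, none rose and 13 fell, with a median of -0.93. VMA9 read 8.98, 8.998 and 8.84 on day 10, against 10.74, 10.73 and 10.55 in log phase, VMA8 differed by -1.62 ± 0.07 and VMA16 by -1.47 ± 0.07.

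Proteasome genes were split, with 13 of 34 higher, 8 lower and a median of 0.09 [-0.88 and -0.55]. The largest difference was that of RPN4, the transcription activator of proteasome genes, which read 9.61, 9.96 and 9.68 on day 10, against 8.03, 8.02 and 8.16 in log phase. Among subunits the range ran only from RPN13 at -0.63 ± 0.10 to RPN2 at 0.67 ± 0.06. Of 15 ubiquitin genes 10 rose and 2 fell (median 0.33 [-0.64 and -0.31]). Polyubiquitin, UBI4, differed by 2.40 ± 0.05, the conjugating enzyme UBC5 by 1.91 ± 0.07, and UBC8, which marks fructose bisphosphatase for degradation, by 1.57 ± 0.11.

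Nitrogen and sulfur genes were mostly higher relative to the other genes. In arginine synthesis 11 of 12 genes rose and none fell (median 0.66 [-0.31 and 0.02]), with ARG3 at 1.66 ± 0.13. In lysine and branched-chain synthesis 14 of 21 rose and 2 fell (median 0.54 [-0.42 and -0.10]). LYS1, the last enzyme of lysine synthesis, differed by 1.88 ± 0.08, and the isopropylmalate synthases LEU4 and LEU9 had opposite signs, 1.68 ± 0.06 and -0.92 ± 0.14. Histidine, tryptophan and aromatic synthesis was balanced at 8 higher and 7 lower of 21 (median 0.02 [-0.95 and -0.62]), from ARO3 (0.95 ± 0.08) to the chorismate mutase ARO7 (-1.35 ± 0.08).

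Sulfate assimilation and methionine genes rose in 27 of 34 and fell in 3 (median 0.82 [-0.15 and 0.18]). The second sulfate permease gene SUL2 differed by 1.77 ± 0.18, sulfite reductase MET10 by 2.13 ± 0.16, and MET30, which restrains the pathway's activator, by 1.77 ± 0.16. SAM4, which recycles S-adenosylmethionine into methionine, fell most (-1.78 ± 0.07). Of the genes under nitrogen catabolite repression, silenced while a good nitrogen source is present, 21 of 27 rose and 1 fell (median 0.74 [-0.23 and 0.09]). GAP1, the general amino acid permease, read 8.93, 8.63 and 8.55 on day 10, against 6.12, 6.21 and 6.70 in log phase, and the gene that fell was DAL1 (-0.24 ± 0.07). The glutamate dehydrogenase of respiratory growth, GDH3, differed by 1.74 ± 0.08 and its paralogue GDH1 by 0.33 ± 0.11.

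Genes of nucleotide synthesis lay near or below log phase. Of 21 purine genes 4 rose and 8 fell (median -0.05), from SHM2 (0.62 ± 0.08), which supplies one-carbon units, to ADE8 (-1.40 ± 0.06). Of 14 pyrimidine genes 3 rose and 8 fell (median -0.54). FUR1, which salvages uracil, read 8.41, 8.15 and 8.39 on day 10, against 10.33, 10.48 and 10.34 in log phase. URA5 differed by -1.05 ± 0.07, and its minor paralogue URA10 was not called (0.07 ± 0.10).

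Genes that respond to shortage of phosphate, iron or thiamine contained large rises, each in part of the list. Phosphate regulon genes rose in 10 of 20 and fell in 5 (median 0.18 [-0.79 and -0.46]). PHO84, the high-affinity phosphate transporter, read 10.83, 11.49 and 11.14 on day 10, against 6.20, 6.16 and 6.60 in log phase, and PHO89, a transporter of the same ion with sodium, read 10.14, 10.25 and 9.96 on day 10, against 6.34, 6.57 and 6.69 in log phase. PHM8, which frees phosphate from nucleotides and lipids, differed by 2.23 ± 0.08. PHM6 fell (-0.77 ± 0.09), as did the acid phosphatase probe set of PHO11 (-0.40 ± 0.05), which close copies share.

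Of 30 iron genes 24 rose and 3 fell, with a median of 1.04. With all controls 13 were called higher and 12 lower. TIS11, which targets mRNAs of iron-using proteins for decay, read 10.84, 10.35 and 10.71 on day 10, against 6.69, 6.80 and 6.60 in log phase, and the wall mannoprotein FIT3, which helps retain iron carriers, 11.23, 10.76 and 11.11 on day 10, against 7.42, 7.27 and 7.45 in log phase. ISU1, a scaffold for iron-sulfur clusters, differed by 3.0 ± 0.09. The genes that fell were ATX1 (-1.21 ± 0.12), FRE1 (-1.02 ± 0.11) and FET4 (-0.96 ± 0.14); ATX1 and FRE1 also serve copper handling. Copper genes themselves had 4 of 8 higher and 3 lower (median 0.27 [-0.70 and -0.37]). The metallothionein CRS5 read 9.77, 9.94 and 9.79 on day 10, against 7.49, 7.44 and 7.59 in log phase, and the CUP1-1 probe set, shared by copies of that metallothionein gene, differed by 2.27 ± 0.06. The copper transporters CTR3 and CTR1 differed by -1.75 ± 0.17 and -1.63 ± 0.12.

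Zinc regulon genes were mostly not called, with 2 higher and 5 lower of 15 (median -0.12). Besides ZPS1, the regulator gene ZAP1 (-0.89 ± 0.20) and the phosphatase gene DPP1 (-0.80 ± 0.21) fell, and the vacuolar zinc and cobalt carrier COT1 rose (1.35 ± 0.11). Of 18 thiamine genes 15 rose and 1 fell (median 1.40). With all controls 10 were called higher and 7 lower. Without day 10 replicate 2, 2 genes were called lower. THI73, a putative transporter, read 9.95, 9.99 and 10.06 on day 10, against 6.30, 6.25 and 6.37 in log phase, and THI7, the thiamine permease, differed by 2.57 ± 0.08. THI80, which makes the coenzyme form, fell (-0.69 ± 0.11).

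Genes of protein synthesis were mostly lower, by modest amounts on this scale. Of 127 cytosolic ribosomal protein genes none rose and 121 fell (median -0.83), and 28 of their probe sets are shared by near-identical copies. RPS28B read 9.23, 9.08 and 9.20 on day 10, against 11.54, 11.56 and 11.44 in log phase, RPS22B differed by -2.11 ± 0.14 and RPS18A by -1.99 ± 0.11. Of 67 mitochondrial ribosomal protein genes 2 rose and 62 fell (median -0.69), and 1 rose without day 10 replicate 1 or without log phase replicate 1 or 2. Ribosome biogenesis genes fell in 66 of 112 and rose in 10 (median -0.36). SDO1, which readies the large subunit, differed by -1.57 ± 0.07, and the pseudouridine synthase CBF5 rose by 0.78 ± 0.13. Genes of RNA polymerases I and III fell in 23 of 38 and rose in 2 (median -0.39), with RPC11 lowest at -2.08 ± 0.15. The count that rose was 4 without day 10 replicate 2 or day 2 replicate 3, and 5 without day 2 replicate 1.

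Translation factors fell in 25 of 36 and rose in 7 (median -0.30). The exception in size was HEF3, a second form of elongation factor 3, which read 8.15, 8.58 and 8.05 on day 10, against 6.50, 6.44 and 6.56 in log phase, beside YEF3, the main form, at 0.75 ± 0.09. Aminoacyl-tRNA synthetase genes fell in 15 of 19 and rose in 2 (median -0.52), from TYS1 (-1.61 ± 0.06) to ALA1 (0.43 ± 0.09).

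Cell division genes were mostly lower. Of 24 cyclins and regulators 16 fell and 3 rose (median -0.33). The mitotic cyclin gene CLB2 was below background on all day 10 arrays and at least 2.13-fold lower than in log phase, and the S-phase cyclin CLB6 differed by -1.62 ± 0.06. The G1 cyclins CLN2 (-0.94 ± 0.11) and CLN1 (-0.80 ± 0.11) fell, while CLN3, the first cyclin of G1, rose (1.09 ± 0.10) and read 9.35, 8.85 and 9.12 on day 10, against 8.08, 7.95 and 8.01 in log phase. Of 10 histone genes 6 fell and 1 rose (median -0.29), and 2 rose without day 10 replicate 1 or day 2 replicate 1. The copies of a histone moved unequally: HTB2 read 7.90, 8.01 and 7.96 on day 10, against 9.96, 9.97 and 10.10 in log phase, whereas HTB1 was not called (-0.09 ± 0.06). HTA1 was not called either (0.12 ± 0.05), and CSE4, the centromere histone, rose (0.54 ± 0.09).

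DNA replication genes fell in 27 of 43 and rose in 6 (median -0.32), with the clamp loader subunit RFC5 at -1.78 ± 0.08. In deoxynucleotide synthesis 8 of 14 fell and 3 rose (median -0.27). DCD1, which deaminates dCMP, differed by -1.98 ± 0.07. RNR1, the large subunit of ribonucleotide reductase, differed by -1.82 ± 0.13, and its damage-inducible form RNR3 rose (0.95 ± 0.05).

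Genes of nutrient signalling regulators changed both ways. 18 of 27 genes rose and 7 fell (median 0.44 [-0.52 and -0.20]), and the count that fell was 4 without day 10 replicate 3. GPA2, the G protein through which glucose stimulates protein kinase A, read 10.13, 10.22 and 10.10 on day 10, against 7.54, 7.54 and 7.68 in log phase, a difference of 2.57 ± 0.08. Both cyclic AMP phosphodiesterases rose, PDE1 by 1.68 ± 0.07 and PDE2 by 0.71 ± 0.08, as did BCY1, the inhibitory subunit of protein kinase A (0.88 ± 0.09). Of its catalytic subunits TPK2 rose (0.98 ± 0.12) and TPK3 fell (-0.62 ± 0.07). RAS1 read 7.35, 7.19 and 7.37 on day 10, against 8.66, 8.66 and 8.71 in log phase and RAS2 differed by -0.63 ± 0.10. Downstream kinases and factors of stationary phase rose: YAK1 (1.41 ± 0.09), GIS1 (1.40 ± 0.06), RIM15 (0.73 ± 0.05) and its target IGO1 (1.57 ± 0.07), with the paralogue IGO2 at -0.19 ± 0.07. TOR1 differed by -0.16 ± 0.05, TOR2 was not called (0.12 ± 0.06), and SCH9, the kinase below TOR complex 1, differed by 0.44 ± 0.08. The stress factor gene MSN2 differed by 0.37 ± 0.06 and MSN4 was not called (-0.03 ± 0.09).

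Sir2 and its relatives are deacetylases studied in yeast ageing. SIR2 read 8.11, 8.09 and 7.95 on day 10, against 8.12, 8.02 and 8.13 in log phase, the groups overlapped and it was not called (-0.04 ± 0.06, adjusted p = 0.505). SIR3 was not called either (0.02 ± 0.06), SIR4 differed by 0.26 ± 0.05 and HST2, the cytosolic relative, by 0.76 ± 0.06. HST3 differed by -0.50 ± 0.06 and HST4 was not called (-0.18 ± 0.09). FOB1, the replication fork barrier protein of ribosomal DNA, fell (-0.58 ± 0.07). In all 6 of 12 genes of the list rose and 2 fell (median 0.12 [-0.85 and -0.53]).

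Mating type markers served as a check on the cells. The labels do not give the mating type, and the strain is known as a MATa haploid. STE2, the MATa-specific receptor for alpha factor, read 7.75, 8.17 and 7.75 on day 10, against 9.75, 9.70 and 9.76 in log phase. MFA1, a MATa-specific gene for the pheromone a-factor, read 9.54, 10.06 and 9.28 on day 10, against 9.83, 9.62 and 9.48 in log phase, with overlapping groups. STE2 fell and MFA1 was not called (-0.02 ± 0.16). Of 7 MATa-specific genes 5 fell and none rose (median -1.25), with BAR1 at -1.26 ± 0.10 and STE6 at -1.25 ± 0.10. The summed level of the list ran from 10.72 to 11.39 on day 10 arrays and from 11.88 to 11.98 on log phase arrays (log2 of the sum of linear values). Of the 4 MATalpha-specific genes 2 rose and none fell (median 0.42 [-0.54 and -0.22]), with a summed level of 8.68 to 8.86 on day 10 and 8.25 to 8.29 in log phase. Pheromone signalling and other haploid genes had 7 of 18 higher and 5 lower (median -0.03), from STE11 (0.98 ± 0.06) to FAR1 (-1.29 ± 0.13). The MATalpha-specific genes that rose were STE3 (0.86 ± 0.06) and SAG1 (0.55 ± 0.09), and the part of the other mating type in any result was not tested.

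Of 20 sporulation genes, which haploid cells do not normally use to form spores, 12 rose and 5 fell (median 0.31 [-0.66 and -0.33]). The genes that fell include SPO13 and SMK1, which were below background on every array of both groups. The count that fell was 3 when replicate 1 or 3 of day 10, or replicate 1 or 3 of log phase, was left out. IME1, the master regulator, read 8.61, 8.75 and 8.59 on day 10, against 6.49, 6.31 and 6.42 in log phase, IME2, the kinase it induces, differed by 1.16 ± 0.07, and NDT80, the activator of the middle genes, by 1.20 ± 0.08. The spore wall gene SPS100 was below background on all log phase arrays and at least 6.99-fold higher on day 10, at 8.43, 9.17 and 8.34 on day 10. SPO11, which cuts DNA for meiotic recombination, was below background on day 10 and at least 2.79-fold lower than in log phase. IME2, SPO13 and SMK1 were picked after their values were seen. The part of meiotic cells in these values was not tested.

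Each list of cell wall genes held genes called each way, as is usual where 39.5% of all genes were called higher and 39.8% lower. Besides NCA3 and PIR3, the PIR and SUN genes had 5 of 8 higher and 3 lower (median 1.21). With all controls 4 were called higher and 3 lower. HSP150 differed by 1.72 ± 0.08 and UTH1 by 1.36 ± 0.06, while SUN4, needed for daughter cells to separate, read 6.79, 7.16 and 6.66 on day 10, against 8.96, 8.87 and 9.04 in log phase. Mannoproteins rose in 5 of 16 and fell in 6 (median -0.06). PST1, a marker of wall stress, read 10.99, 11.14 and 11.24 on day 10, against 7.65, 7.64 and 7.78 in log phase, and SED1, the main mannoprotein of stationary phase walls, rose by 2.39 ± 0.07. TIP1 and TIR3 differed by -1.96 ± 0.11 and -1.13 ± 0.08. Of 23 glucanases and transglycosylases 9 rose and 10 fell (median 0.08 [-0.89 and -0.56]). GSC2, the alternative glucan synthase, read 11.59, 11.65 and 11.58 on day 10, against 8.87, 9.04 and 8.84 in log phase, and the wall linker CRH1 differed by 1.52 ± 0.14. The daughter-specific genes DSE2 and DSE1, whose products act after cell division, differed by -1.66 ± 0.21 and -1.59 ± 0.16.

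Genes of lipid synthesis and of transport from the endoplasmic reticulum were lower. Ergosterol genes fell in 17 of 25 and rose in 3 (median -0.64). ERG28, a scaffold of the pathway, read 8.25, 8.32 and 8.21 on day 10, against 10.39, 10.44 and 10.24 in log phase, ERG20 differed by -1.70 ± 0.09, and the oxygen-dependent ERG25 rose (0.64 ± 0.08). In fatty acid synthesis 9 of 14 genes fell and 1 rose (median -0.45). The gene that rose was OLE1, the only fatty acid desaturase of yeast, at 11.77, 11.77 and 11.76 on day 10, against 10.32, 10.35 and 10.56 in log phase. PHS1 (-1.91 ± 0.09) and ELO3 (-1.67 ± 0.08), of very long chain synthesis, fell. All 8 genes of the p24 family, receptors for cargo that leaves the endoplasmic reticulum, fell, with a median of -1.39. Differences ran from -2.53 to -0.57. ERP2 read 7.30, 7.23 and 7.15 on day 10, against 9.71, 9.90 and 9.66 in log phase, and EMP24 differed by -1.51 ± 0.09.

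Mitochondrial import genes fell in 24 of 31 and rose in 2 (median -0.56). The small carriers of the intermembrane space TIM12 (-1.51 ± 0.08) and TIM9 (-1.46 ± 0.16) fell most, with ERV1, which oxidises imported proteins, at -1.39 ± 0.09. The genes that rose were TIM44 (0.26 ± 0.07), of the import motor, and MAS2 (0.18 ± 0.06), of the processing peptidase. MAS2 was not called without day 10 replicate 1 or log phase replicate 1 or 2, at 0.15 to 0.17. Decapping factors, which mark mRNA for decay, fell in 10 of 23 and rose in 3 (median -0.06). EDC2, an activator of decapping, read 9.52, 9.41 and 9.40 on day 10, against 7.47, 7.39 and 7.38 in log phase. LSM5 (-1.54 ± 0.10) and LSM6 (-1.12 ± 0.09), of the ring that binds mRNA ends, and DCP1 (-1.29 ± 0.07) were lowest.

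Direct contrasts with day 6 called many genes, both among those called against log phase and among the rest. Day 10 was called higher than day 6 for 1571 genes (28.8%) and lower for 1748 (32.1%), and 3744 genes (68.7%) had arrays that did not overlap. Calls in either direction came to 60.9% of genes. By at least 2-fold, 185 genes (3.4%) were higher and 95 (1.74%) lower. Of the 2151 genes higher on day 10 than in log phase, 802 (37.3%) were lower on day 10 than on day 6 and 565 (26.3%) higher. Of the 2170 genes lower than in log phase, 728 (33.5%) were higher on day 10 than on day 6 and 613 (28.2%) lower. Of the 1128 genes not called against log phase, 333 (29.5%) were lower on day 10 than on day 6 and 278 (24.6%) higher. All these shares are to be read beside the 32.1% lower and 28.8% higher over all genes. The contrasts share the day 10 arrays, so these counts are a description. Against the same log phase arrays, day 6 had 41.6% of genes called higher and 41.1% lower. Centring on all hybridisation controls moves the median of all genes between days 10 and 6 by 0.22, and between days 10 and 2 by -0.55. For 8 array control genes, the 3' probe sets exceeded the 5' ones by a mean of 1.28 on day 10 arrays. This gap was 1.65 on day 6 and 0.86 on day 2 arrays, and its part in these contrasts was not tested.

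Growth genes were higher on day 10 than on day 6. Ribosome biogenesis had 104 of 112 genes higher and 1 lower (median 0.75 against day 6), and cytosolic ribosomal proteins 101 of 127 higher and 1 lower (median 0.49). NSR1, a nucleolar protein of rRNA processing, read 10.83, 10.50 and 10.79 on day 10, against 8.48, 8.54 and 8.72 on day 6, a difference of 2.12 ± 0.15, and against log phase it differed by 0.17 ± 0.15. Translation factors rose in 32 of 36, tRNA synthetases in 18 of 19 and purine genes in 18 of 21, with 3, 0 and 1 that fell. The medians of these lists against day 6 were 0.65, 0.65 and 0.98. Mitochondrial ribosomal proteins took the other direction, with 47 of 67 lower than on day 6 and 1 higher (median -0.27). That median is little larger than the shift of 0.22 from centring on all hybridisation controls, so it lies near log2 equality on that scale.

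Genes of derepressed carbon metabolism were lower on day 10 than on day 6. Gluconeogenesis and glyoxylate genes fell in 11 of 12 against day 6 and rose in 1 (median -1.04). TCA cycle genes fell in 15 of 17 (median -0.47), respiratory chain genes in 20 of 23 (median -0.59) and glycogen genes in 12 of 13 (median -0.76). Carnitine carries acetyl groups into mitochondria. YAT1, an acetyltransferase of this shuttle, read 8.15, 8.43 and 8.10 on day 10, against 10.47, 10.57 and 10.48 on day 6, YAT2 differed by -2.11 ± 0.11 and the carrier CRC1 by -1.82 ± 0.17. REG2, a phosphatase regulatory subunit, differed by -1.82 ± 0.09, and FMP16, a stress-induced mitochondrial protein, by -1.87 ± 0.18. Autophagy genes fell in 21 of 34 and rose in 1 (median -0.26), and CIS1, of the mitochondrial response to stalled import, differed by -1.87 ± 0.14. The autophagy median is little larger than the shift of 0.22 from centring on all hybridisation controls.

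**Figure D4:**
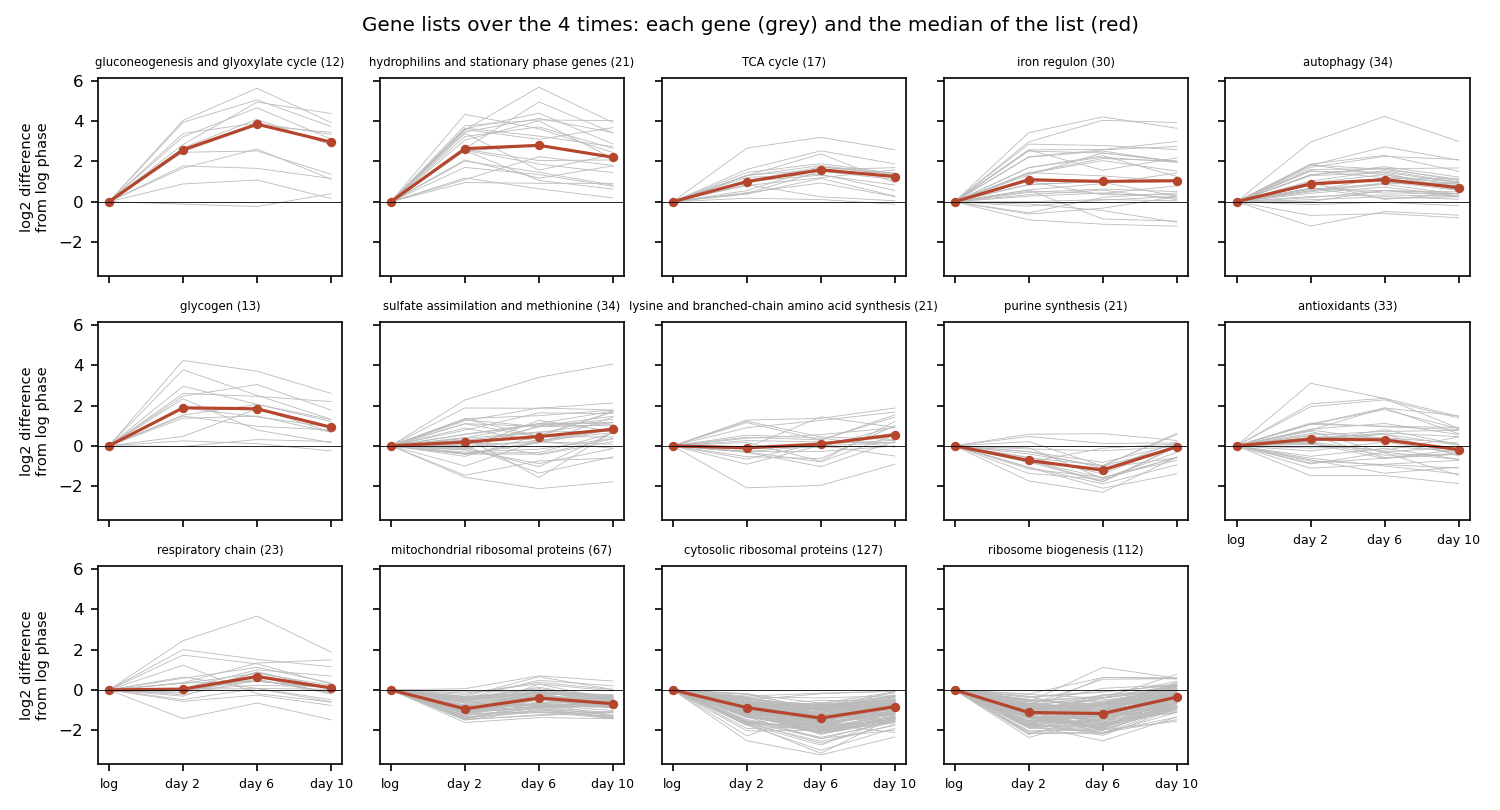
Difference from log phase (y axis, log2) at log phase, day 2, day 6 and day 10 for the genes of 14 lists, grey for each gene and red for the list's median; all days share the log phase arrays. From day 6 to day 10 the medians of ribosome biogenesis, cytosolic ribosomal proteins and purine synthesis move up, and those of gluconeogenesis, TCA cycle, glycogen and autophagy move down.

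Some genes were higher on day 10 than at each other time. ANS1 read 10.21, 8.66 and 9.84 on day 10, against 6.07, 5.81 and 6.00 on day 6, a difference of 3.61 ± 0.27 from day 6, and YMR244W, of unknown function, read 10.67, 10.06 and 10.60 on day 10, against 7.73, 7.61 and 7.84 on day 6. PHO84 differed from day 6 by 2.21 ± 0.15. ALD5, a mitochondrial aldehyde dehydrogenase, read 10.51, 10.32 and 10.58 on day 10, against 8.34, 8.30 and 8.19 on day 6, with 2.35 against log phase and 2.64 ± 0.07 against day 2. The methionine synthase MET6 (2.28 ± 0.11), the arginase CAR1 (2.14 ± 0.17) and the glycerol phosphatase GPP1 (2.11 ± 0.14) were also among the 8 genes highest against day 6. Sulfate and methionine genes as a list rose in 17 of 34 against day 6 and fell in 1, and lysine and branched-chain genes rose in 13 of 21 and fell in 3. Far lower on day 10 than on day 6 was ZPS1, at 7.27, 7.84 and 7.31 on day 10, against 10.12, 10.92 and 11.09 on day 6. So was the copper transporter CTR3, at 7.51, 7.66 and 7.49 on day 10, against 9.77, 9.76 and 10.15 on day 6. The lowest difference from day 2 in the copper list, which holds CTR3, was -0.43, so CTR3 was not far below day 2. ZAP1, the zinc regulator, differed from day 6 by -1.32 ± 0.20 (adjusted p = 9.80e-05).

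Against day 2, day 10 was called higher for 1903 genes (34.9%) and lower for 1751 (32.1%), with 204 (3.74%) and 226 (4.15%) past 2-fold, 67.1% called in either direction and 68.5% with arrays that did not overlap. ANS1 (13.5-fold higher at least, being below background on all day 2 arrays), YMR244W (3.69 ± 0.15), PHO89 (3.13 ± 0.15) and NCA3 (3.09 ± 0.11) were the highest. YOR338W, of unknown function, differed by 2.37 ± 0.10 and STR3, of homocysteine synthesis, by 2.21 ± 0.19. The lowest included HXT3, which read 7.28, 7.14 and 7.56 on day 10, against 11.84, 11.68 and 11.78 on day 2, while the difference from day 6 was -0.30 ± 0.09. Of 7 MATa-specific genes 7 were lower than on day 2 and 0 higher (median -3.39), and of 18 haploid and pheromone signalling genes 15 were lower and 1 higher (median -1.25), beside 32.1% of all genes lower. MF(ALPHA)1, a gene for alpha factor, read 6.16, 6.69 and 6.09 on day 10, against 10.28, 10.65 and 10.51 on day 2, the agglutinin genes AGA1 and AGA2 differed by -3.83 ± 0.11 and -3.64 ± 0.12, and BAR1 by -3.73 ± 0.10. On the other arrays MF(ALPHA)1 read 5.91, 5.89 and 5.97 on day 6 and 5.95, 6.09 and 6.00 in log phase, so that the day 2 arrays alone were high. The wall protein TIP1 differed by -3.73 ± 0.11, and the THI13 probe set, shared by close copies, by -3.78 ± 0.07.

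**Figure D5:**
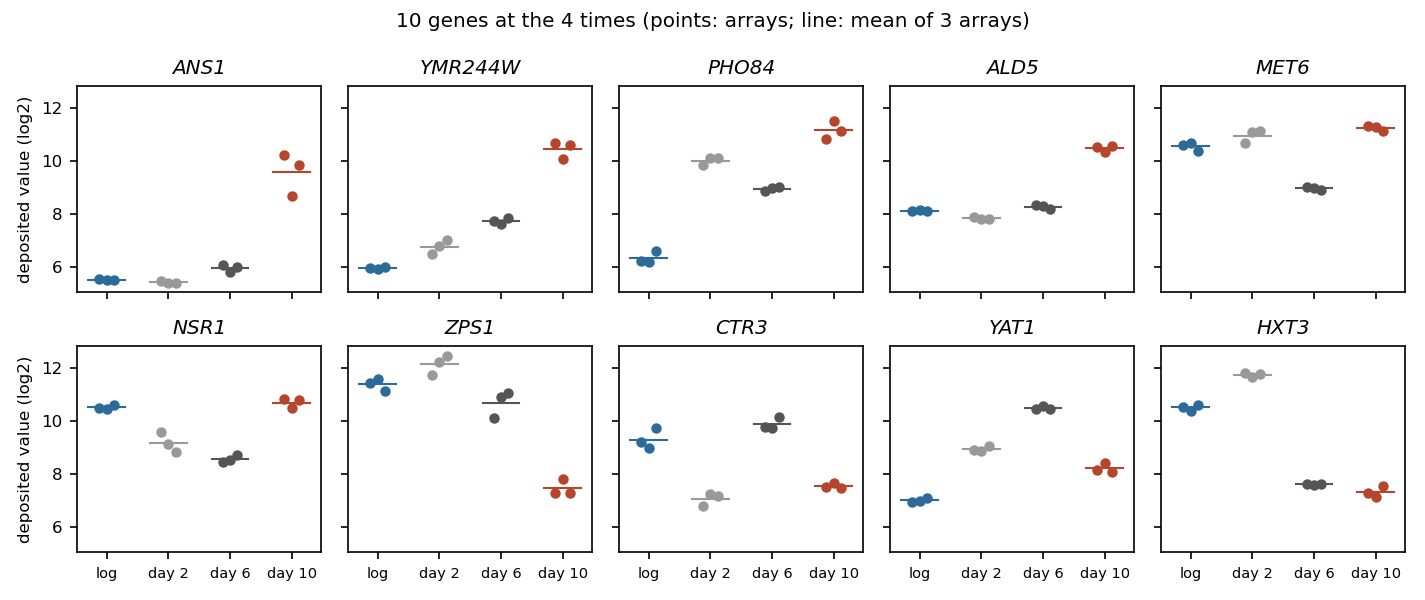
Probe set values (y axis, log2) of 10 genes at log phase, day 2, day 6 and day 10, 1 point per array and a line at the mean of 3 arrays. ANS1, YMR244W and ALD5 are highest on day 10, ZPS1 is lowest there, YAT1 peaks on day 6, and NSR1 and MET6 dip on day 6.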

How the data were processed

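The authors deposited 1 summary value per probe set and Affymetrix array. These run from 5.11 to 13.79 and were taken as log2 for that reason, since no deposited label names their scale. The submitters' processing notes name PLIER. For its version, background correction and array normalization, nothing is given in the sources used here. The scale has a floor, so differences of dim genes understate the change. All 12 columns were used.

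Of 10928 probe sets, the platform annotation assigned 7244 to 1 gene, 1 to several and 3470 to none, and 213 were array controls. Symbols were updated for 12 genes through a RefSeq table of the reference strain S288C, which is not the strain studied. This left 5498 S. cerevisiae probe sets for 5449 genes, and for 47 genes with several probe sets the one with the highest mean was used. Background on an array was the 95th percentile of 1746 probe sets for another yeast. Where all 3 arrays of a group lay below it, the fold is a lower bound. Between 5246 and 5259 genes lay above it on day 10 arrays, and 5137 to 5170 on log phase arrays.

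limma 3.58.1 in R 4.3.3 fitted a coefficient for each time to all 12 arrays, leaving 8 residual degrees of freedom and 12.9 after moderation. Benjamini-Hochberg adjustment ran over all 5449 genes, and an adjusted p under 0.05 was a call. A simulation of day 10 against log phase, in which 200 of 5449 genes were shifted in sets of 50, gave recovery of 46% for shifts of 0.25 (log2), 96% for 0.5 and 100% for 1 and for 2, beside 5 false calls. It drew independent normal noise at the fitted spread, without array effects, and shifted far fewer genes than the 79.3% called. It therefore checks the code and does not measure recovery or false calls in the real comparison. Members, the 63 gene lists, the 28 pairs and the rule for naming genes were chosen with earlier results of these data known. That rule takes the 15 highest and 15 lowest called genes that do not overlap, 3 each way per list, members of the regulator, silencing, mating type and histone lists, both genes of each pair, and the 8 highest and lowest against days 6 and 2. It covers 443 genes, of which 296 appear here, chosen among them with values seen, and the lists' counts cover every measured member. A further 7 genes outside the rule were picked after their values were seen. The genes RPP1 and MRP8, caught by a name pattern of the ribosomal protein lists, were removed after values had been seen because they are not ribosomal proteins. Alternatives were quantile normalization, median centring, centring on hybridisation controls with and without bioB, an offset of 16 on the linear scale, a filter on dim genes, every probe set separately, the mean of probe sets, a trended and robust prior, only the arrays compared, a replicate block, array weights (whose iteration stopped early), a 3' minus 5' covariate, each array left out and a 2-fold minimum.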

Additional observations from a re-analysis of the deposited data

Results flagged for a closer look

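Against the same log phase arrays, 177 of 5449 genes were called in opposite directions on day 10 and day 6 and also differed between those days (49 of them by at least 1 on the log2 scale). The 5 genes with the largest difference between the days in each direction were picked after their values were seen. All differences are from limma, with 3 arrays a time, and are given with the standard error. Higher on day 10 and lower on day 6 than in log phase were 103 genes. The largest differences of day 10 from day 6 were those of MET6, methionine synthase, at 2.28 ± 0.11, CAR1, arginase, at 2.14 ± 0.17, GPP1, a glycerol phosphatase, at 2.11 ± 0.14, HOM2, an enzyme of threonine and methionine synthesis, at 2.02 ± 0.10, and BAT1, the mitochondrial branched-chain aminotransferase, at 1.98 ± 0.08. Lower on day 10 and higher on day 6 than in log phase were 74 genes. They were led by CTR3, a copper transporter, at -2.34 ± 0.17, ACS2, an acetyl-CoA synthetase, at -1.16 ± 0.08, ERG5, a sterol desaturase, at -1.13 ± 0.13, IRC24, a reductase, at -1.12 ± 0.10, and TSA1, a peroxiredoxin, at -1.09 ± 0.09. With centring on all hybridisation controls the first 5 differ from log phase on day 10 by between -0.56 and 0.25, so that direction changes for those below 0.97 in the main values. The second 5 lay 0.31 to 0.81 above log phase on day 6 in the main values. The controls themselves averaged 9.60 to 9.82 on day 6 arrays and 8.48 to 8.66 on log phase arrays. Centred on them, the second 5 therefore lie below log phase on day 6 too.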

How the results depend on the processing

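Arrays limited the precision to 3 values a time, and 188 genes had a mean under the background of 5.82. The outcome turned most on what the arrays were centred on. With all hybridisation controls 381 genes were higher and 4424 lower on day 10 than in log phase, and without bioB 590 and 3674. Between days 10 and 6 the calls were 1938 and 1821 on these scales, against 3319. A 2-fold minimum left 590 higher and 461 lower genes against log phase, 280 against day 6 and 430 against day 2. With the 3' to 5' gap of the array controls as a covariate, 2425 genes were called against day 2, against 3654, and the cause was not tested. The gap averaged 1.28 on day 10 arrays and 0.86 on day 2 arrays, so it cannot be told apart from the day. In the other settings each of these 4 counts stayed within 1.5 times of its main value. Leaving out each of 12 arrays in turn gave 2046 to 2195 genes higher and 2061 to 2228 lower than in log phase, 2914 to 3540 called against day 6 and 3332 to 3719 against day 2.

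No clear pairing by replicate number was seen. Same-numbered day 10 and log phase arrays had correlations of 0.11, -0.04 and 0.09 over genes of their deviations from the group means. For differently numbered arrays the correlations ran from -0.18 to 0.14. Deviations from a mean of 3 arrays are tied together, so these values cannot settle whether the arrays were paired. With the replicate block 2147 genes were higher and 2156 lower than in log phase, so the count of calls hardly moved, and not every array correlated best with its own number.

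Of 286 called genes among the 303 named here, 34 changed sign against log phase with all hybridisation controls, 18 of them also without bioB, and 0 under the remaining settings. Genes that were not called have no settled sign and are not counted. With all controls only, the values were those of RNR3 (-0.019), ARO3 (-0.019), CAR1 (-0.032), SIP2 (-0.038), CAT8 (-0.078), BCY1 (-0.085) and MIG1 (-0.085). Likewise changed were CIS1 (-0.11), STE3 (-0.11), CBF5 (-0.19), HST2 (-0.21), YEF3 (-0.22), RIM15 (-0.24) and PDE2 (-0.26). To these belonged MET6 (-0.27) and RPN2 (-0.30). With both sets, all controls first, they were those of ERG25 (-0.33 and -0.0010), SHM2 (-0.35 and -0.023), GPD1 (-0.37 and -0.048), HOM2 (-0.41 and -0.079), HSC82 (-0.41 and -0.089), SAG1 (-0.42 and -0.092) and CSE4 (-0.43 and -0.099). So did ADH1 (-0.50 and -0.17), GPD2 (-0.50 and -0.18), SCH9 (-0.52 and -0.20), ALA1 (-0.54 and -0.22), GPP1 (-0.56 and -0.23), MSN2 (-0.60 and -0.28) and GDH1 (-0.64 and -0.31). The last were SIP1 (-0.64 and -0.32), SIR4 (-0.71 and -0.38), TIM44 (-0.71 and -0.38) and MAS2 (-0.79 and -0.47).

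The calls of 18 genes of small difference against log phase turned on single arrays. The call was lost without 1 or more arrays for GAL83 (-0.19 to -0.15), GDH1 (0.21), GLC7 (-0.26 to -0.19), GPP1 (0.32), IGO2 (-0.19 to -0.13), MAS2 (0.15 to 0.17). It was also lost for MPC1 (-0.21 to -0.16), SMK1 (-0.12 to -0.11), SPO13 (-0.14 to -0.13), SSA2 (-0.23 to -0.17) and TOR1 (-0.13). A call was gained for HST4, HTA1, IDP1, MF(ALPHA)1, SNF1, SOL4 and TOR2.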

Other observations

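The 1746 probe sets for genes of another yeast species, which should hold no S. cerevisiae gene, gave 182 calls between day 10 and log phase at an adjusted p under 0.05 in limma, 12 between days 10 and 6 and 2 between days 10 and 2. In each of these 3 comparisons 0 calls reached 2-fold. Between day 6 and log phase 247 of the 1746 were called. A call of a small difference from log phase can thus arise on a probe set without an S. cerevisiae gene, and the cause was not tested.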
